A study of Homo sapiens with 6 samples.

Results

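HK-2 cells, an immortalised line from the human kidney proximal tubule, were sequenced to ask how raising *PPM1K* changes their RNA, and 10 genes of mitochondrial protein quality control are described here. They were chosen by name, as the rows of the count and FPKM tables whose symbol was HSPD1, HSPE1, HSPA9, TRAP1, LONP1, CLPP, CLPX, YME1L1, AFG3L2 or HTRA2, and all 10 of the 31369 genes in the count table were found. The control group (NC, n = 3) carries the genotype entry wild type and the overexpression group (OE, n = 3) the entry *PPM1K* overexpression, from a transfected plasmid. What the controls were transfected with is not given in the sources used here. The cell type entries and the titles give HK-2, while the cell line entries number the line differently from sample to sample. All 6 samples carry the same treatment entry, chronic kidney disease, and a collection time of day 10. Their titles speak of short hairpins, against control and against *PPM1K*, which goes against the genotype entries. The groups used here follow the genotype entries. As a check of these labels, the counts of *PPM1K*, a phosphatase of the mitochondrial matrix, were 37, 19 and 53 in NC and 3294, 3531 and 2919 in OE, which fits the genotype entries and not the titles. The study speaks of biological replication, but the sources used here do not describe how the replicate cultures were kept apart, and the p-values measure the spread between these samples.

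Total counts were 34635770 to 36116963 in NC and 36033404 to 39850802 in OE. NC replicate 2 stood apart with a count for 26478 genes, where the other 5 samples had 22094 to 22913. In the study's read distribution it also had the highest shares of intronic, intergenic and antisense reads of all samples. Its extra genes with a count need therefore not be expressed. Of 8 epithelial markers, 6 were at an FPKM of 1 or more in every sample, while CDH1 and PAX2 were below 1 in all of them. The 12 genes listed for the differentiated proximal tubule, among them CUBN, AQP1 and SLC34A1, were below an FPKM of 1 in every sample or had no FPKM value, so the defining markers of the labelled cell type were at or near 0. Of 10 markers of leukocytes, endothelium, podocytes, fibroblasts and thick ascending limb, only COL1A1 reached that level, at 1.23 to 1.44 in NC and 0.63 to 0.72 in OE.

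Most mitochondrial proteins are made in the cytosol and enter the organelle unfolded. HSPA9 (mortalin), the Hsp70 of the matrix, pulls them through the inner membrane and folds them, HSPD1 and HSPE1 form the chaperonin barrel and its lid, and TRAP1 is the Hsp90 of the organelle. Proteins that cannot be folded are degraded by LONP1 and by CLPP with its unfoldase CLPX in the matrix, by AFG3L2 and YME1L1 on opposite faces of the inner membrane, and by HTRA2 in the intermembrane space. When unfolded proteins build up, cells are known to raise several of these genes together, a programme called the mitochondrial unfolded protein response.

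The positions of the genes are those of GENCODE release 44 on GRCh38. HSPD1 (12 exons in its canonical transcript) is at chr2:197486584-197516737 on the minus strand, HSPE1 (4 exons) at chr2:197500140-197503449 on the plus strand and HTRA2 (8 exons) at chr2:74529596-74533350 on the plus strand. HSPA9 (17 exons) is at chr5:138553756-138575675, YME1L1 (19 exons) at chr10:27110111-27155266, CLPX (14 exons) at chr15:65148219-65185342, TRAP1 (18 exons) at chr16:3651639-3717553 and AFG3L2 (17 exons) at chr18:12328944-12377227, all on the minus strand. LONP1 (18 exons) at chr19:5691834-5720572 on the minus strand and CLPP (6 exons) at chr19:6361531-6370242 on the plus strand share a chromosome.

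The DNA upstream of the 4 members that the results turn on is shown first. RefSeq promoter windows on GRCh38.p14, from 250 bases before a transcription start to 50 bases after it, matched 8 of the 10 members with 11 windows. HSPD1 and HSPE1 lie head to head on chromosome 2 and are a textbook pair driven from 1 shared stretch of DNA. The starts of their canonical transcripts are 539 bases apart. A second HSPD1 window, at chr2:197500225-197500524, has a start closer to HSPE1, for which the distances given here do not hold. The HSPD1 window below is at chr2:197499791-197500090 on the minus strand, and the HSPE1 window at chr2:197500129-197500428 on the plus strand. The HSPA9 window is at chr5:138575352-138575651 and the LONP1 window at chr19:5720097-5720396, both on the minus strand. Each is written 5′ to 3′ on the strand of its gene. Capitals mark every match on either strand to the heat shock elements GAANNTTC and TTCNNGAA, the E-box CACGTG, the cyclic AMP response element TGACGTCA, the NRF1 core GCGCANGCG or the ATF4 and CHOP composite element TGATGNAA.
HSPD1: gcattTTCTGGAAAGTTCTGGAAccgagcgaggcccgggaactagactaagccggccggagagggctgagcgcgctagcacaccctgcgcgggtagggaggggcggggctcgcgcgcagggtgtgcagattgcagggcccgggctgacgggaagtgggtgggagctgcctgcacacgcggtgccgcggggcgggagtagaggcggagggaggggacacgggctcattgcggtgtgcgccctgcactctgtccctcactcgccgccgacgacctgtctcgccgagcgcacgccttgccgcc
HSPE1: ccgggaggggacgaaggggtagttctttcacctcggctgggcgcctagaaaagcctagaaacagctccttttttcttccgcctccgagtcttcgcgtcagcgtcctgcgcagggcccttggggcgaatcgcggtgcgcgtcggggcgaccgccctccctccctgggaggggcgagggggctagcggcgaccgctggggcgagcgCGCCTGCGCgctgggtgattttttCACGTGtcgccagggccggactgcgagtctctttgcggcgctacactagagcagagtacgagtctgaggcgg
HSPA9: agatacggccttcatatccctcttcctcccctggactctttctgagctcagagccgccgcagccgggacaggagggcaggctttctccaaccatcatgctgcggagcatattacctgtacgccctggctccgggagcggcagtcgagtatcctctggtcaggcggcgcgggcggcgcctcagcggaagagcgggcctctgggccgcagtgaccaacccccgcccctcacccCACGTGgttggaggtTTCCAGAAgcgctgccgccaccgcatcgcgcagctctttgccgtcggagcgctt
LONP1: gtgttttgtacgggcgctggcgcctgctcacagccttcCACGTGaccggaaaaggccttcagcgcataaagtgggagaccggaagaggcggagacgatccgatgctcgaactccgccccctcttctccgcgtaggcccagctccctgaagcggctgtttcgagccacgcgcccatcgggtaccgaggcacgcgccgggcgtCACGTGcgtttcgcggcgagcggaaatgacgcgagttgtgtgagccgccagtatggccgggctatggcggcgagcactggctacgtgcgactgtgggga

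In the HSPD1 window 3 overlapping heat shock matches make up the block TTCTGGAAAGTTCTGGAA, at chr2:197500068-197500085. It lies between the canonical starts of the pair, its near edges 228 bases before that of HSPD1 and 294 bases before that of HSPE1. The block is therefore outside the HSPE1 window. From the start of the second HSPD1 window it lies downstream. The inward form was found in 6.77% and the outward form in 7.74% of all 35116 windows of the table. HSPA9 holds the outward form as TTCCAGAA, whose first base is 4 bases before the start, so that the match spans the start. CACGTG was in 4 of the 11 member windows and in 7.26% of all windows. It occurs in HSPA9 and at 2 places in LONP1. It is also in HSPE1, at the same bases as in the second HSPD1 window. That window shares 204 bases with the HSPE1 window. The NRF1 core was in 4 of the 11 member windows and in 7.52% of all windows. It occurs in CLPX, in a second LONP1 window that is not printed, and in HSPE1 and the second HSPD1 window at the same bases. TGACGTCA was in the window of TRAP1 and in 1.85% of all windows. TGATGNAA was in 0 of the 11 member windows and in 3.62% of all windows, which says only that these letters are absent from these stretches. Such matches describe the letters and show no binding.

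Of the 10 genes, 6 were higher and 1 was lower in OE than in NC, and none passed a fold threshold of 2 in either direction. HSPA9 and LONP1 rose most, to 1.88-fold and 1.83-fold, followed by AFG3L2 at 1.34-fold, HTRA2 at 1.24-fold, CLPP at 1.19-fold and YME1L1 at 1.16-fold. HSPE1 fell by 25.0%. HSPD1, TRAP1 and CLPX did not pass the test. These fold changes come from the deposited counts by edgeR's quasi-likelihood test, and a gene passed at a Benjamini-Hochberg adjusted p under 0.05 over the 15878 genes tested. All 10 members passed the filter on low counts. Among all tested genes 24.9% were higher and 23.7% lower by the same rule. The median log2 fold change was 0.23 over the 10 genes and −0.0032 over all tested genes. With the fold threshold of 2 added, edgeR called 5.51% of the tested genes and 0 of the 10 members. With that threshold DESeq2 called 796 of 17988 genes and 0 of the members. In limma, 123 or 513 of 30896 genes were called, by the pseudocount used, and also 0 members. An unadjusted p under 0.05 in edgeR was found for 7 members and for 8655 of the 15878 tested genes.

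**Figure D1:**
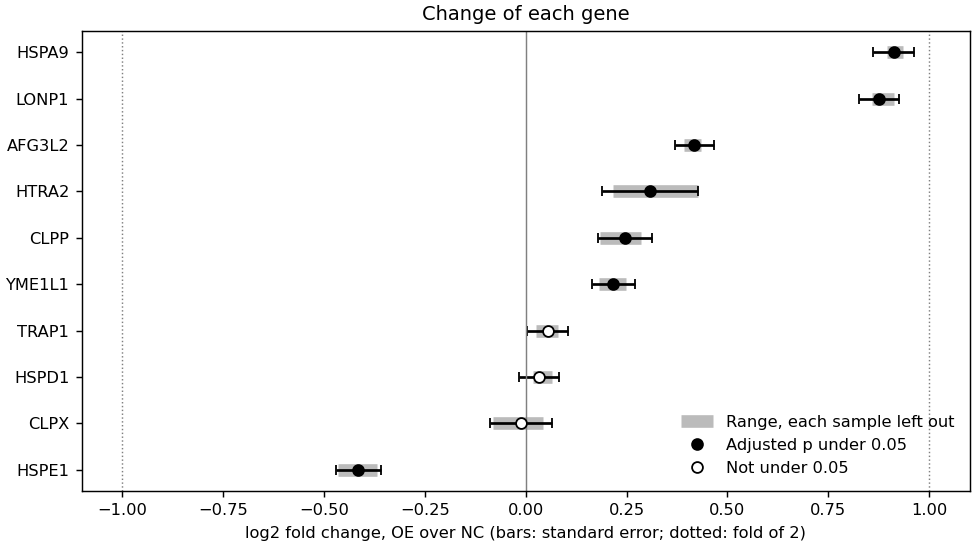
The log2 fold change of OE over NC (horizontal axis) is plotted for each of the 10 genes, with bars for the standard error and grey bands for the range with each sample left out. HSPA9 at 0.91 and LONP1 at 0.87 lie near the dotted line of a 2-fold rise, and HSPE1 at −0.41 is the only filled point left of 0.

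The chaperones did not move as 1 group. HSPA9, the motor of import and the matrix Hsp70, had an FPKM of 74.52, 75.19 and 78.24 in NC replicates 1 to 3 and of 142.89, 145.39 and 146.54 in OE. FPKM is the authors' fragment count scaled by a transcript length and by the mapped fragments of the sample. Levels of different genes set side by side by FPKM depend on the lengths used. The change of a gene or of a ratio between the groups does not. The groups lay far apart, and the SD in CPM was 23.4 around 807 in NC and 3.09 around 1518 in OE. The log2 fold change from the counts was 0.91 ± 0.05 (SE, adjusted p 5.6e-12), with a 95% confidence interval of the fold from 1.75 to 2.02. HSPA9 stood at place 391 from the top among the 15878 log2 fold changes. Its lowest count, 27220, gives a counting error of 0.606%.

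HSPE1, the lid of the chaperonin, went the other way. Its FPKM was 141.14, 136.67 and 149.54 in NC and 114.98, 107.6 and 102.28 in OE, so every OE sample was below every NC sample. This was a log2 fold change of −0.41 ± 0.06 (SE, adjusted p 3.1e-06). HSPD1, the barrel that HSPE1 closes, had an FPKM of 71.85, 69.45 and 71.35 in NC against 69.82, 75.33 and 75.46 in OE, and the groups overlapped. Its log2 fold change was 0.03 ± 0.05 (SE, adjusted p 0.61), and the 95% interval of its fold ran from 0.953 to 1.098, against 0.692 to 0.813 for HSPE1. The FPKM ratio of HSPD1 to HSPE1 within a sample was 0.509, 0.508 and 0.477 in NC and 0.607, 0.700 and 0.738 in OE. The ratio was higher in every OE sample, by 1.36-fold (exact two-sided permutation p = 0.1, the smallest that 3 against 3 samples allow). These are the head-to-head genes whose promoter windows are printed above.

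HSPE1 is also contained in HSPE1-MOB4, an annotated readthrough gene on the same strand, and how the authors assigned reads from exons that both share is not stated. HSPE1-MOB4 itself had 143 to 175 counts in NC and 153 to 167 in OE, against 7154 to 10616 for HSPE1. Its log2 fold change was −0.10 ± 0.13 (SE, adjusted p 0.54). HSPD1 overlaps HSPE1 and MOB4 on the opposite strand.

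TRAP1, the mitochondrial Hsp90, showed no difference that the test could detect. Its FPKM was 22.52, 20.58 and 22.24 in NC and 22.92, 23.53 and 22.3 in OE, and these ranges overlapped. It had a log2 fold change of 0.05 ± 0.05 (SE, adjusted p 0.40), with a 95% interval of the fold from 0.965 to 1.117.

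**Figure D2:**
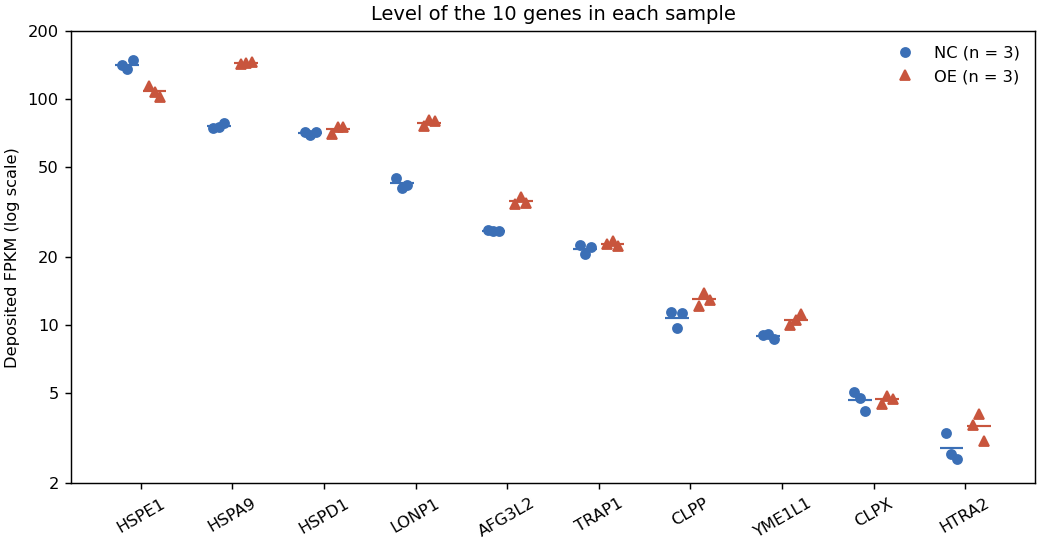
The deposited FPKM (log axis) of each gene is shown in the 3 NC samples (circles) and the 3 OE samples (triangles), with a line at each group mean. The groups do not overlap for HSPE1, HSPA9, LONP1, AFG3L2, CLPP and YME1L1, and they overlap for HSPD1, TRAP1, CLPX and HTRA2.

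Of the 3 genes of the soluble matrix proteases 2 rose, LONP1 and CLPP. LONP1 degrades oxidised and unfolded proteins and also binds mitochondrial DNA. Its FPKM was 44.84, 40.63 and 41.66 in NC and 75.86, 80.74 and 79.78 in OE, with no overlap. The log2 fold change was 0.87 ± 0.05 (SE, adjusted p 9.9e-12), the 95% interval of the fold ran from 1.71 to 1.97, and LONP1 stood at place 442 from the top. LONP1 overlaps RPL36 on the opposite strand.

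CLPP, the peptidase chamber of the other matrix protease, had an FPKM of 11.42, 9.7 and 11.3 in NC and 12.19, 13.92 and 12.86 in OE. The lowest OE sample was above the highest NC sample, and the log2 fold change was 0.25 ± 0.07 (SE, adjusted p 0.0044). CLPX, the ring that unfolds proteins and feeds them to CLPP, had an FPKM of 5.04, 4.77 and 4.18 in NC and 4.49, 4.87 and 4.71 in OE. Those ranges overlapped, with a log2 fold change of −0.012 ± 0.076 (SE, adjusted p 0.91) and a 95% interval of the fold from 0.888 to 1.11. The FPKM ratio of CLPP to CLPX was 2.27, 2.03 and 2.70 in NC and 2.72, 2.86 and 2.73 in OE. The OE values lay just above the highest NC value (1.19-fold, exact two-sided permutation p = 0.1). The log2 difference of 0.26 became 0.16 without NC replicate 2 and 0.37 without NC replicate 3. On the log2(FPKM + 1) scale limma gave CLPP 0.25 with an adjusted p of 0.074.

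Of the inner membrane ATPase proteases, the members AFG3L2 and YME1L1 rose, while SPG7, which is no member, fell. AFG3L2, a subunit of the protease that faces the matrix, had an FPKM of 26.25, 26.05 and 26.14 in NC and 34.48, 36.9 and 34.89 in OE. The NC samples agreed within a coefficient of variation of 0.383%, the OE samples lay clear above them, and the log2 fold change was 0.42 ± 0.05 (SE, adjusted p 4.2e-07). YME1L1, whose catalytic side faces the intermembrane space, had an FPKM of 9.08, 9.14 and 8.66 in NC and 10.04, 10.49 and 11.18 in OE. The groups again did not overlap, with a log2 fold change of 0.22 ± 0.05 (SE, adjusted p 0.0020). YME1L1 overlaps MASTL and AFG3L2 overlaps TUBB6, each on the opposite strand.

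SPG7 (paraplegin) is the partner with which AFG3L2 forms a mixed ring, and it had a log2 fold change of −0.43 ± 0.05 (SE, adjusted p 1.3e-06). The FPKM ratio of AFG3L2 to SPG7 was 11.4, 11.0 and 12.1 in NC and 19.8, 21.8 and 20.4 in OE, a difference of 1.80-fold. The height of this ratio rests on the lengths behind FPKM. In NC AFG3L2 had 6576 to 6828 counts and SPG7 had 3013 to 3280. The difference between the groups does not depend on those lengths. MAIP1, a matrix protein that binds AFG3L2, rose by a log2 fold change of 0.71 ± 0.09 (SE, adjusted p 1.6e-06).

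HTRA2, a serine protease that promotes apoptosis when it reaches the cytosol, was the lowest and least certain of the 10. Its counts were 326, 274 and 260 in NC and 381, 448 and 309 in OE, and OE replicate 3 lay within the NC range. The log2 fold change was 0.31 ± 0.12 (SE, adjusted p 0.036), and the counting error of the lowest sample was 6.20%. The call was lost in 8 of 15 alternatives, over which the adjusted p ranged from 0.0042 to 0.195. Among these were DESeq2 (adjusted p 0.0749) and the fits without NC replicate 2 (0.0922), NC replicate 3 (0.160), OE replicate 1 (0.0849) or OE replicate 2 (0.188). HTRA2 overlaps AUP1 and LOXL3 on the opposite strand. XIAP, an inhibitor of caspases that HTRA2 can bind, had a log2 fold change of 0.30 ± 0.10 (SE, adjusted p 0.017). Its CPM was 23.6, 25.7 and 21.7 in NC and 27.9, 24.7 and 35.1 in OE, so the groups overlapped and OE replicate 3 was the highest.

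In CPM, the OE samples lay above all NC samples for 5 of the 10 genes and below them for 1. Over all tested genes these shares were 28.2% and 27.1%. By FPKM the order of the 10 genes in NC was HSPE1 (142), HSPA9 (76.0), HSPD1 (70.9), LONP1 (42.4), AFG3L2 (26.1), TRAP1 (21.8), CLPP (10.8), YME1L1 (8.96), CLPX (4.66) and HTRA2 (2.86), as group means. No neighbours in this order overlapped in their samples. In OE the order by deposited FPKM began with HSPA9 (145), HSPE1 (108), LONP1 (78.8) and HSPD1 (73.5), and the other 6 genes kept their places. There too no neighbours overlapped, although the lowest LONP1 sample (75.86) and the highest HSPD1 sample (75.46) were close. HSPE1 has the shortest canonical mRNA of the 10, 557 bases, and HSPD1 has 2245. FPKM divides by transcript length, and the length the authors used is not stated in the sources used here. CPM over FPKM, which gives about that length in kilobases, exceeded the canonical mRNA of all 10 genes. The excess was larger for HSPD1 (NC means of CPM 587 and FPKM 70.9, 2245 bases) than for CLPX (27.6 and 4.66, 4695 bases). The order therefore rests on these lengths. Per canonical base HSPD1 would stand above HSPA9 in NC (CPM 807, 4404 bases), and HSPE1 (CPM 211) above HSPA9 (CPM 1518) in OE.

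**Figure D3:**
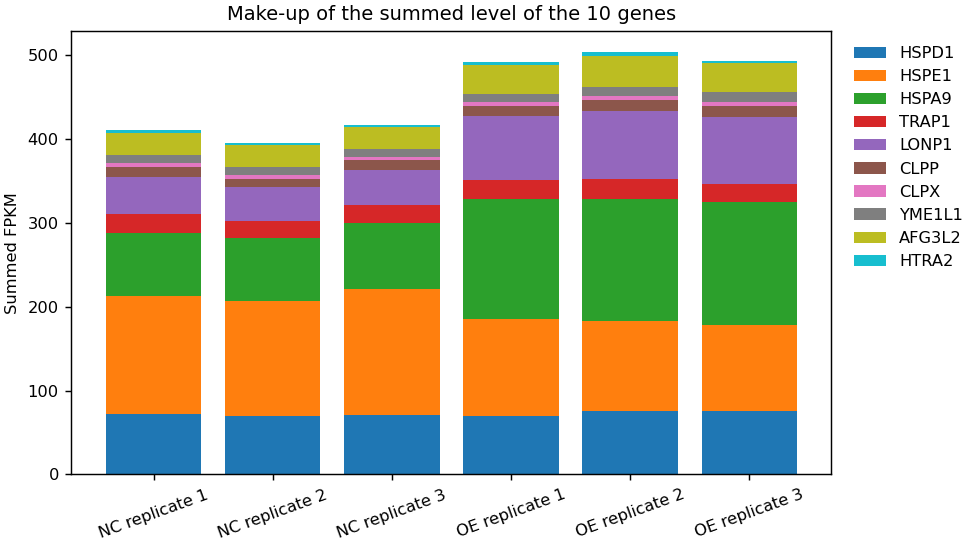
Stacked bars give the FPKM of the 10 genes in each of the 6 samples, one colour per gene, from 0. The total is 395 to 416 in NC and 491 to 503 in OE, with a wider HSPA9 layer and a narrower HSPE1 layer in OE.

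Summed over the 10 genes, FPKM averaged 407 with an SD of 10.8 over the NC samples and 496 with an SD of 6.20 over the OE samples (n = 3 each). The sum came to 0.132% of all deposited FPKM in NC and 0.165% in OE, and it is given as a description without a test. Like the order, the sum and the shares that follow depend on the lengths behind FPKM. HSPE1 made up 34.42% to 35.96% of the sum in NC and 20.74% to 23.4% in OE. The share of HSPA9 went from 18.7% ± 0.449 to 29.2% ± 0.424, and that of LONP1 from 10.4% ± 0.472 to 15.9% ± 0.396 (SD, n = 3 each). HSPD1 held 17.4% ± 0.232 in NC and 14.8% ± 0.561 in OE (SD, n = 3 each), with its own level within the overlap given above. The FPKM ratio of HSPA9 to HSPD1 was 1.037, 1.083 and 1.097 in NC and 2.05, 1.93 and 1.94 in OE. Set against HSPE1, which fell, the ratio of HSPA9 went from 0.534 ± 0.0144 to 1.34 ± 0.0953 (SD, n = 3 each), or 2.51-fold.

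**Figure D4:**
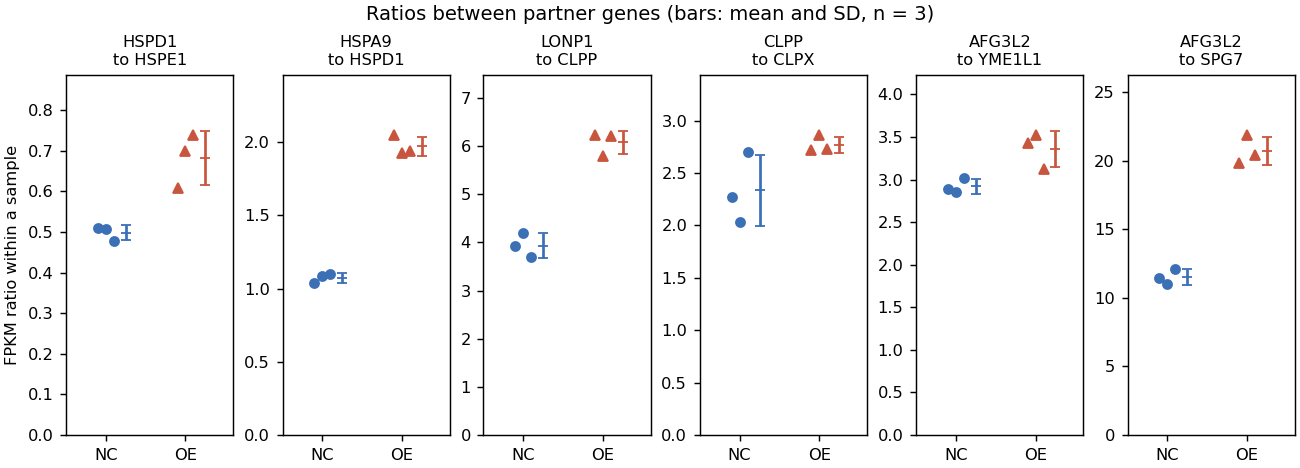
Each panel plots the FPKM ratio of 2 partner genes within a sample, from 0, for 3 NC samples (circles) and 3 OE samples (triangles), with the mean and SD beside them. The first gene of each pair is the one with the larger log2 fold change, so that all 6 ratios are higher in OE follows from this order. The difference is 1.36-fold for HSPD1 to HSPE1, 1.84-fold for HSPA9 to HSPD1 and 1.80-fold for AFG3L2 to SPG7.

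Several mitochondrial co-chaperones, which assist HSPA9 and its relatives, rose. The list of 9 genes also holds the disaggregase CLPB, which is no co-chaperone of HSPA9 (log2 fold change −0.13 ± 0.09, adjusted p 0.22). Of the list 8 genes were tested, 4 were higher and 0 lower, against 24.9% and 23.7% of all tested genes. The list had a median log2 fold change of 0.31. TIMM44, which holds HSPA9 at the import channel, had 0.79 ± 0.05 (SE, adjusted p 2.0e-10), and DNAJA3, its J-protein in the matrix, had 0.59 ± 0.06 (SE, adjusted p 1.1e-07). GRPEL2 and GRPEL1 are the exchange factors that release its nucleotide. GRPEL2 had 0.55 ± 0.09 (SE, adjusted p 3.8e-05) from 300 to 350 counts in NC and 492 to 524 in OE. GRPEL1, the better counted of the pair at 3187 to 3888 counts, had 0.05 ± 0.05 (SE, adjusted p 0.41), so that the FPKM ratio of HSPA9 to GRPEL1 went from 3.58 ± 0.107 in NC to 6.51 ± 0.118 in OE (SD, n = 3 each). DNAJC19 had 0.29 ± 0.07 (SE, adjusted p 0.0015).

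The other mitochondrial peptidases did not share the rise of LONP1 and AFG3L2. Of 15 genes listed as such 0 were higher and 7 lower, against 24.9% and 23.7% of all tested genes. The median log2 fold change of the 15 was −0.17. Over 8 alternatives the number lower ran from 5 to 8. The 15 include OSGEPL1, named after a peptidase but known as a tRNA-modifying enzyme, which did not pass (0.21 ± 0.24, SE, adjusted p 0.50). Besides SPG7, the smallest adjusted p belonged to PITRM1, which clears cleaved presequences, with −0.35 ± 0.06 (SE, adjusted p 4.1e-05), LACTB with −0.35 ± 0.06 (SE, adjusted p 0.00011) and MIPEP, which trims imported proteins, with −0.35 ± 0.10 (SE, adjusted p 0.0076). OMA1, which works beside YME1L1 on the fusion protein OPA1, was another of the 7, at −0.40 ± 0.14 (SE, adjusted p 0.020). OMA1 had only 157 to 244 counts per sample, and the groups overlapped in CPM. Of 4 membrane scaffold genes 2 were higher and 0 lower, against 24.9% and 23.7% of all tested genes. Without OE replicate 2, 1 was lower. The higher ones were MAIP1 and STOML2, a platform for YME1L1. STOML2 had 0.27 ± 0.06 (SE, adjusted p 0.00035), while the prohibitins PHB and PHB2 had −0.13 ± 0.05 (adjusted p 0.053) and 0.02 ± 0.06 (adjusted p 0.79).

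Of 10 known clients and partners of the 10 genes, 3 were higher, 2 lower and 5 did not pass, shares near the 24.9% and 23.7% of all tested genes. Over 8 alternatives the number higher ran from 2 to 4. TFAM, which packs mitochondrial DNA and is a substrate of LONP1, had the clearest rise, at 0.64 ± 0.06 (SE, adjusted p 1.0e-08). PRELID1, a lipid carrier degraded by YME1L1, had 0.31 ± 0.06 (SE, adjusted p 0.00011), and XIAP, given above, was the third. OPA1 had −0.26 ± 0.06 (SE, adjusted p 0.00066) and ALAS1, the haem synthesis enzyme controlled by CLPX and CLPP, had −0.30 ± 0.07 (SE, adjusted p 0.0014). TIMM17A (0.05 ± 0.06), SMDT1 (0.13 ± 0.15), MRPL32 (−0.08 ± 0.05), DIABLO (0.02 ± 0.30) and BIRC2 (0.18 ± 0.07) did not pass, with adjusted p from 0.052 to 0.97.

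Transcription factors of the stress responses moved unevenly. Of 6, 4 were higher and 1 lower, against 24.9% and 23.7% of all tested genes. DDIT3 (CHOP) had 1.08 ± 0.06 (SE, adjusted p 3.1e-12), CEBPB 0.93 ± 0.06 (SE, adjusted p 3.1e-11), HSF1 0.31 ± 0.06 (SE, adjusted p 0.00017) and ATF4 0.28 ± 0.06 (SE, adjusted p 0.00042). ATF5, linked to the mitochondrial unfolded protein response, was lower at −0.32 ± 0.07 (SE, adjusted p 0.00055), and HSF2 had −0.0089 ± 0.072 (SE, adjusted p 0.93). RNA levels do not show the activity of these proteins.

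Cytosolic chaperones, most of them from the families of the members, moved in both directions. Of 17, 8 were lower and 4 higher, against 23.7% and 24.9% of all tested genes. The share that rose was thus near that of all tested genes. Over 8 alternatives the number higher ran from 2 to 5. The median log2 fold change of the 17 was −0.10. HSPA8 and HSPA1A, cytosolic relatives of HSPA9, had −0.80 ± 0.05 (SE, adjusted p 1.4e-10) and −0.98 ± 0.08 (SE, adjusted p 4.7e-09). HSPB1, a small heat shock protein of a family without a member here, had −0.94 ± 0.06 (SE, adjusted p 5.9e-11) and HSPH1 −0.68 ± 0.05 (SE, adjusted p 2.6e-10). Some subunits of the cytosolic chaperonin, relatives of HSPD1, were among those that rose. CCT2 had 0.35 ± 0.05 (SE, adjusted p 4.8e-06), CCT5 0.19 ± 0.05 (SE, adjusted p 0.0036) and CCT7 0.14 ± 0.05 (SE, adjusted p 0.025), whereas CCT4 had −0.18 ± 0.05 (SE, adjusted p 0.0090). The other chaperonin subunits of the list did not pass. HSPA1A and HSPA1B are near-identical copies whose reads cannot be assigned with certainty. The difference between the cytosolic and the mitochondrial genes was not tested.

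The mRNAs encoded by mitochondrial DNA were lower in OE. Of 13, 11 passed in that direction and 0 in the other, against 23.7% and 24.9% of all tested genes. The log2 fold changes of the 13 ran from −0.44 to −0.11 with a median of −0.34. MT-CO1, a core subunit of cytochrome oxidase, had the smallest adjusted p, at −0.44 ± 0.06 (SE, adjusted p 4.2e-06). In bulk RNA fewer mitochondria per cell and less of these RNAs per mitochondrion cannot be told apart. Their part in the changes of the 10 genes was not tested.

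**Figure D5:**
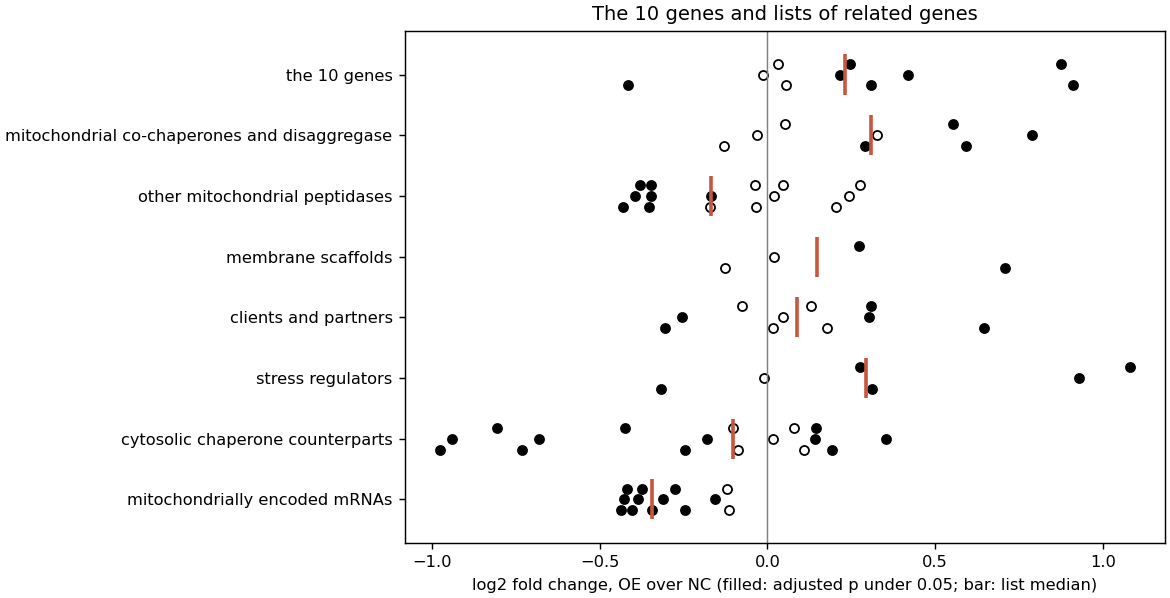
The log2 fold change of OE over NC (horizontal axis) is shown for every tested gene of the 10 and of each list, filled where the adjusted p was under 0.05, with a bar at the list median. The 10 genes and the co-chaperones have medians of 0.23 and 0.31, and the other peptidases and the mitochondrially encoded mRNAs have −0.17 and −0.34.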

How the data were processed

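RNA of 3 NC and 3 OE samples was sequenced from both ends after stranded mRNA library preparation. The authors trimmed reads with FASTX-Toolkit, used HISAT2 for alignment to GRCh38 (the submitters' processing notes also name mm10, a mouse build), and kept uniquely mapped reads for counting. The deposited counts are not normalized, and the deposited FPKM values are relative to transcript length and mapped fragments and have 2 decimals. Annotation release, counting program and use of strand are not given in the sources used here, so overlapping genes are uncertain.

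Here the deposited counts were fitted with edgeR 4.0.16 in R 4.3.3 (filterByExpr, TMM, glmQLFit and glmQLFTest), with p-values adjusted by Benjamini-Hochberg over 15878 genes. The depth, 34635770 to 39850802 counts per sample, makes counting error small except for the lowest genes. SE is the absolute log2 fold change over the square root of F, and CPM was computed by edgeR. Alternatives were DESeq2 1.42.0, limma 3.58.1 on the log2 scale of FPKM with a pseudocount of 1 or 0.1, other scalings, filters, a replicate block, pseudogene copies added to their parent gene and each sample left out. The ratios of HSPD1 to HSPE1 and of CLPP to CLPX were compared by exact permutation on the log2 scale. Gene positions are from GENCODE release 44. The members and lists were chosen with earlier results of these data known. Genes were named as members, as the 4 tested genes per list with the lowest adjusted p, as clients or stress regulators, or as copies and readthrough genes of members. OMA1, GRPEL1, PARL, CLPB, CCT4, CCT5, CCT7, CCT2 and OSGEPL1 fall outside that rule and were added after their values were seen. Ratios other than HSPD1 to HSPE1 and CLPP to CLPX were likewise added. A permutation test planned for the summed FPKM is not reported, because the members were chosen with results known.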

Additional observations from a re-analysis of the deposited data

How the results depend on the processing

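The number of members higher in OE was 6 in edgeR and stayed between 4 and 6 in all 15 alternatives, and the number lower was 1 in each. It was 5 with DESeq2 and with upper quartile scaling and 4 with limma on either FPKM scale, where HTRA2 and, in limma, CLPP (adjusted p 0.074 and 0.066) no longer passed. HSPA9, LONP1, AFG3L2, YME1L1 and HSPE1 passed in the same direction in all 15. With each sample left out, HSPA9 stayed between 0.89 and 0.94, LONP1 between 0.86 and 0.91 and HSPE1 between −0.47 and −0.37. HSPD1 and CLPX, which did not pass, changed sign around 0, and TRAP1 did not. HSPD1 had −0.0053 with upper quartile scaling. CLPX had 0.0092 and 0.012 in limma with a pseudocount of 1 and 0.1, and −0.082 to 0.043 with a sample left out. The cause was not tested. The log2 difference of the ratio of HSPD1 to HSPE1 was 0.45 and stayed between 0.39 and 0.53. Adding pseudogene copies changed no call of a member. Same-numbered samples of the groups did not deviate together (correlations of −0.0032, −0.066 and −0.054), and no sample of the 6 was closest to its own number. With the replicate block 6 members were higher and 1 lower, and 2 instead of 4 cytosolic chaperones were higher. Past the fold threshold of 2 there were 875 genes in edgeR and 123 and 513 in limma with a pseudocount of 1 and 0.1. HTRA2 and CLPX, with the lowest counts among the members, had the widest errors.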

Other observations

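Near-identical copies of the members took few counts in these tables. Numbered HSPD1 pseudogenes had 10 rows, with 36 to 52 counts per sample in all, and 3 of them, HSPD1P1, HSPD1P4 and HSPD1P11, had a count in every sample. HSPE1 pseudogenes had 11 rows with 2 to 9 counts per sample, and HSPA9P1 had 0 to 3. Only uniquely mapped reads were counted, so reads that match a gene and its copy equally well are in neither. PARL, a rhomboid protease of the inner membrane, had 23 to 47 counts and DIABLO, which like HTRA2 binds XIAP, had 20 to 35, so their changes could not be measured well.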
